A study of Saccharomyces cerevisiae with 30 samples.

Results

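The comparison concerns budding yeast, Saccharomyces cerevisiae, that carry a W89A substitution in the protein Yaf9 (W89A), at time point 3 of the yeast metabolic cycle against time point 2 of the same strain. Members are the W89A libraries of these time points, chosen by their titles: 6 of the 30 libraries in the series, 3 at each time point, with every gene of the count table that passed a filter on low counts. The series holds W89A and wild-type (WT) cells, both of the CEN.PK122-alpha background, at 5 time points in each of 3 consecutive cycles. Both strains were grown in a chemostat with oxygen and rich medium until they starved, and were then fed slowly with low-glucose medium. The labels state no separate cultures for the 3 cycles, so p-values measure the spread between cycles, and strain cannot be told apart from culture. The labels give no oxygen trace, so a time point has a number and no phase name here. RNA came from whole cultures, in which fewer cells of one state and less RNA per cell cannot be told apart.

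In glucose-limited chemostats, yeast cultures can synchronise into oscillations of oxygen use. Genes for ribosomes and growth peak while oxygen use is high, mitochondrial and cell division genes follow as it declines, and genes for reserve carbohydrates, autophagy, fat oxidation and stress peak while oxygen use is low. Yaf9 holds a YEATS domain, a fold that reads acylated histone tails, and is a subunit shared by SWR1, which places the histone variant H2A.Z (HTZ1) in nucleosomes, and by NuA4, a histone acetyltransferase. W89 lies in the pocket of that domain.

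The 6 W89A libraries held between 17332832 and 19800375 counts, and the 12 libraries of both strains in the fit reached 20260295. Messenger RNA of YAF9 averaged 24.7 ± 3.37 CPM at time point 3 and 22.5 ± 2.92 CPM at time point 2 in W89A (SD, n = 3 each), with a log2 fold change of 0.14 ± 0.15 (edgeR adjusted p = 0.534). Counts per gene cannot show a substitution, so the genotype was not checked. The mating type label could be checked. Means of the 4 alpha-specific genes ran from 151 CPM for MF(ALPHA)2 to 3149 CPM for MF(ALPHA)1 at time point 3 and from 52.3 to 2500 CPM for the same genes at time point 2. Means of the 6 a-specific genes ran from 6.43 CPM for AGA2 to 38.8 CPM for STE2 at time point 3 and from 2.14 to 22.97 CPM for the same genes at time point 2. The third-cycle W89A library of time point 3 stood apart. Its log2 CPM (counts per 1000000, after scaling by TMM size factors) correlated at 0.974 and 0.976 with the other time point 3 libraries, which correlated at 0.991 with each other, and at 0.975 to 0.98 with the time point 2 libraries. For the first and second cycles of time point 3, correlations with time point 2 lay between 0.95 and 0.955. The number of genes called in W89A and the counts of several gene lists are therefore given with and without that library. Other counts include it unless stated. CPM values for single genes are listed in the order of cycles 1, 2 and 3, and fold changes are log2 of time point 3 over time point 2 ± SE.

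In W89A at time point 3 against time point 2, genes for making ribosomes were lower, and genes for glycogen, trehalose and respiration were higher. Of 6140 genes tested, 1706 (27.8%) were called at an edgeR adjusted p under 0.05: 784 (12.8% of all genes tested) were higher and 922 (15%) were lower. Changes of at least 2-fold were called for 160 genes that were higher (2.61%) and 305 that were lower (4.97%). Scaling by library totals alone, in place of TMM, gave 863 higher and 740 lower. In 2629 genes (42.8%) the 3 values of one time point lay wholly outside those of the other. Among genes called higher, the median change was 0.75 in the first cycle, 0.79 in the second and 0.33 in the third, and 711 of 784 had the same sign in all 3 cycles. Among genes called lower, the medians were -0.98, -0.97 and -0.36, and 891 of 922 kept their sign. Without the third-cycle library of time point 3, 1005 genes were called higher (16.3%) and 1164 lower (18.8%), including 750 and 881 of the genes above. Leaving out any other of the 6 W89A libraries lowered the counts: 755 genes in all without the second-cycle and 835 without the first-cycle library of time point 3, and 1145, 950 and 1519 without the time point 2 library of cycles 1, 2 and 3, against 1706 with every library.

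**Figure D1:**
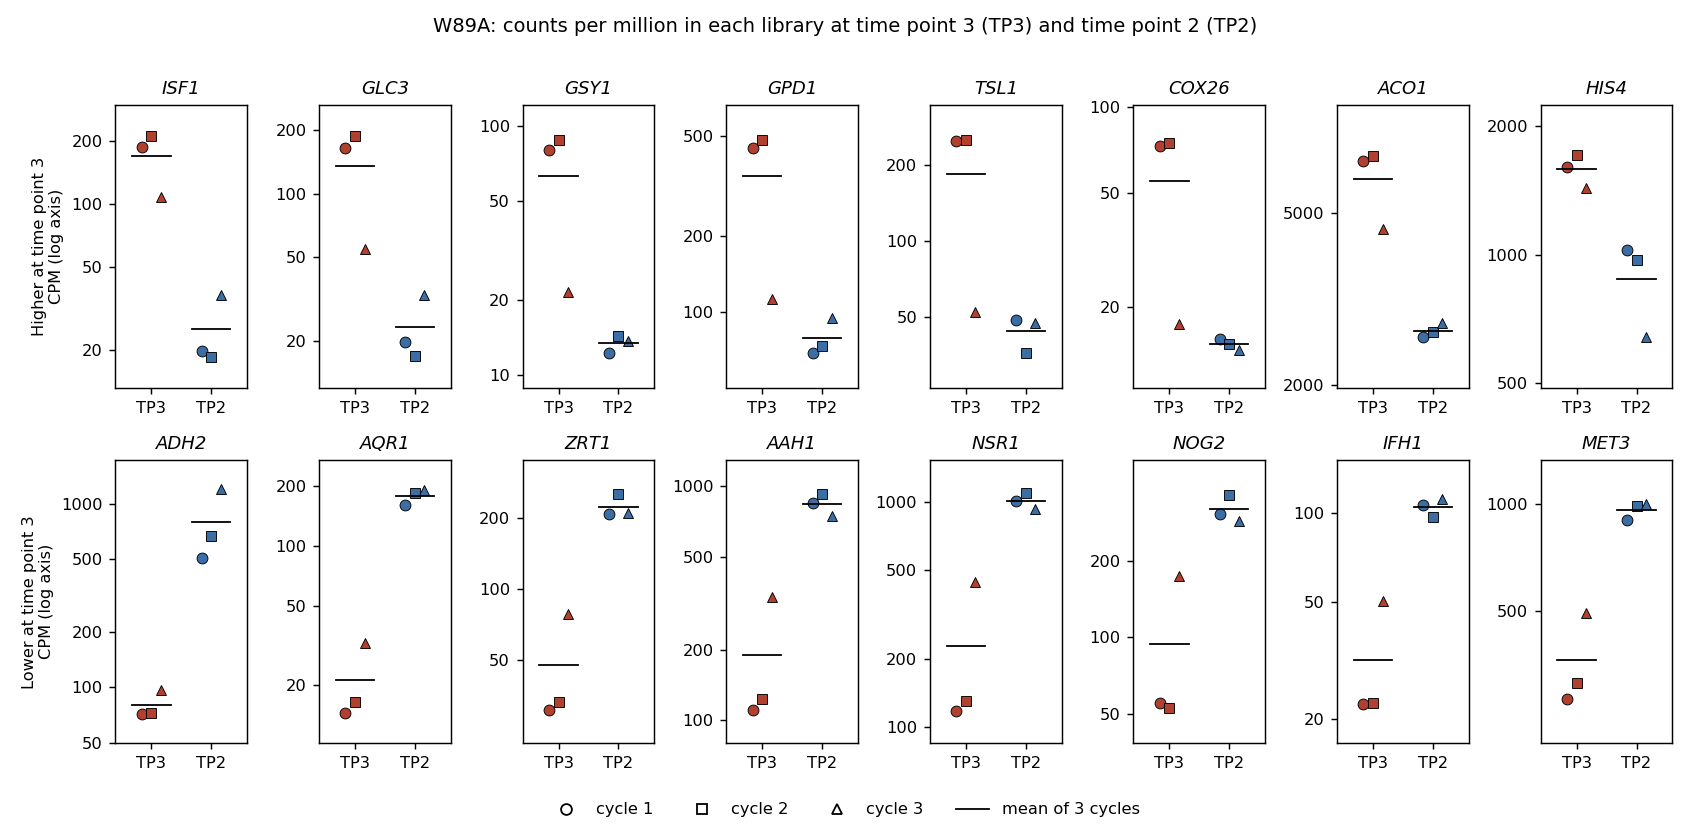
CPM on a log axis in the 3 W89A libraries of time point 3 (TP3, red) and of time point 2 (TP2, blue) for 8 genes that were higher and 8 that were lower; symbols mark the cycle and bars the mean. In the upper row the third-cycle TP3 value (triangle) is the lowest of its group, and in the lower row it is the highest, as for NSR1 with 442 CPM against 118 and 130.5 CPM.

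Short motifs known to bind growth, stress and nutrient regulators were counted in the promoters, taken as 250 bases before to 50 bases after each gene's start on the R64 reference. The motifs were PAC (GATGAG), RRPE (AAAATTTT), the stress response element STRE (AGGGG), the GATA motif (GATAAG) and the Gcn4 motif (TGACTC), read on both strands, and matches of different motifs were counted separately even where they overlap. PAC and RRPE stand before genes of ribosome assembly, where Dot6 and Tod6 bind PAC and Stb3 binds RRPE as repressors. STRE is bound by the stress activators Msn2 and Msn4, GATA by Gln3 and Gat1 of nitrogen control, and TGACTC by Gcn4 of amino acid control. Of the promoters of genes called at least 2-fold lower, 67.4% held PAC and 46.5% held RRPE, against 20.4% and 9.03% of all 6001 promoters. Of those of genes called at least 2-fold higher, 39.6% held STRE, against 21.6% of all promoters, and 6.04% held RRPE. GATA and Gcn4 motifs differed less: 16.8% and 8.05% of promoters in the higher set and 9.97% and 4.98% in the lower set, against 14.7% and 7.98% of all promoters. A match is a description of the letters and not of a bound site.

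**Figure D2:**
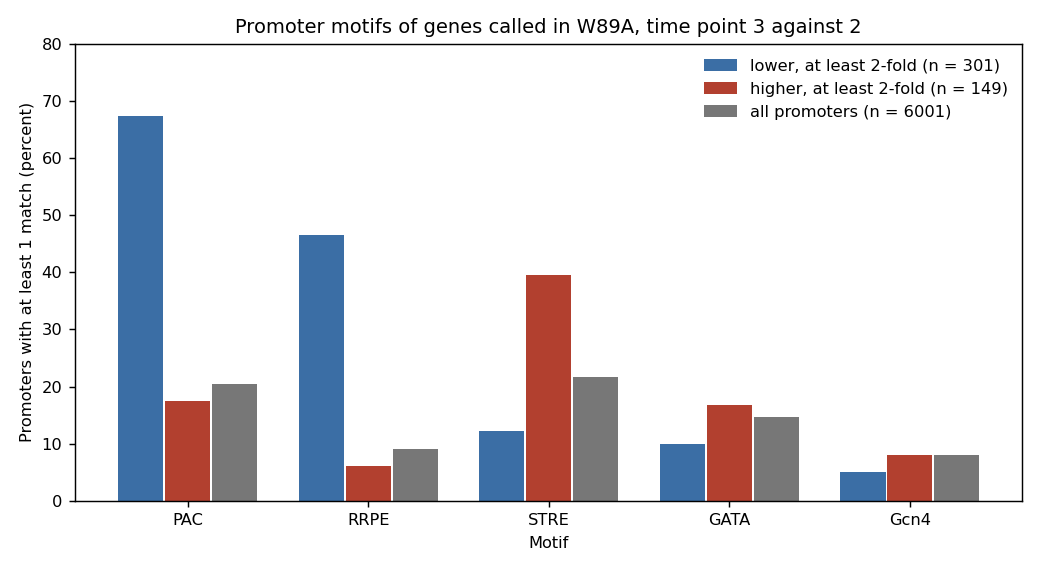
Share of promoters (percent) with at least 1 match to each motif, for genes called at least 2-fold lower (blue) and at least 2-fold higher (red) in W89A at time point 3 against time point 2, and for all promoters (grey). PAC and RRPE bars are tallest in the lower set, at 67.4% and 46.5%, and the STRE bar is tallest in the higher set, at 39.6%.

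A promoter for each motif class is printed from the R64 reference of strain S288C, 5′ to 3′ in the direction of the gene. Capitals mark matches to the motif or motifs for which each promoter was chosen.
NSR1 promoter, chrVII:807607-807906, minus strand: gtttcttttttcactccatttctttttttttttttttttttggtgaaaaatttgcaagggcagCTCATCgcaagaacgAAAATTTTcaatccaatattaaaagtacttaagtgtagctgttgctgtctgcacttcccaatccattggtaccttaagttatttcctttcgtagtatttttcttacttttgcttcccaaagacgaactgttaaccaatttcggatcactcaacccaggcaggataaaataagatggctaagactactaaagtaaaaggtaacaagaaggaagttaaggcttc
RTC3 promoter, chrVIII:280570-280869, plus strand: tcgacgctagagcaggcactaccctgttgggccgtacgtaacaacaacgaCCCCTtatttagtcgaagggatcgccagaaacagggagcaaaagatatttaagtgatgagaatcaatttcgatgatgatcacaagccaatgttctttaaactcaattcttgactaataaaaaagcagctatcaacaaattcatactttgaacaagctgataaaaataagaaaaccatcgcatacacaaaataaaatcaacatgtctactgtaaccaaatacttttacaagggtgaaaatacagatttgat
GAP1 promoter, chrXI:514813-515112, plus strand: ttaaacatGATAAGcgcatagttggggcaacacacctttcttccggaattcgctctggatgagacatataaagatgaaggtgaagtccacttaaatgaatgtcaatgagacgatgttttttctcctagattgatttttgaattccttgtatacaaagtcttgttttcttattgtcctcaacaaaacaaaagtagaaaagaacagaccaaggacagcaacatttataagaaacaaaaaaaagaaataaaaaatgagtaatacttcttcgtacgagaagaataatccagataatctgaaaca
HIS4 promoter, chrIII:68284-68583, minus strand: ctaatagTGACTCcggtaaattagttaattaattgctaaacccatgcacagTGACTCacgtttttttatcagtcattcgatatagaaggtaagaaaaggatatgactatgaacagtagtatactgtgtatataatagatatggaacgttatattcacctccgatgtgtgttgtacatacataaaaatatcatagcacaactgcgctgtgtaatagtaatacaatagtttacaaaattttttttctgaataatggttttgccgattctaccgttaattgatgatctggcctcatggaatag

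With the base before the start counted as -1, the NSR1 promoter has PAC on the opposite strand from -187 and RRPE from -172. NSR1 encodes a nucleolar protein of small subunit assembly and was among the 15 genes with the largest fall. In the RTC3 promoter an STRE on the opposite strand begins at -200, and RTC3 belongs to a list of desiccation and stationary phase genes. GAP1, the general amino acid permease, has a GATA motif from -242. HIS4, an enzyme of histidine synthesis, has Gcn4 motifs from -243 and from -199. Matches to other motifs, not in capitals, were PAC from -146 in RTC3, PAC from -193 in GAP1 and RRPE from -19 in HIS4. Among gene lists, PAC was found in 90.1% of small subunit processome promoters, 90% of large subunit assembly promoters and 10.9% of ribosomal protein promoters. Gcn4 motifs were found in 47.9% of amino acid synthesis promoters and GATA motifs in 42.4% of nitrogen catabolite promoters. STRE was found in 50% of respiratory chain and 45.5% of trehalose and glycogen promoters.

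Ribosome assembly made up the most uniform fall. Of 71 genes of the small subunit processome, which folds and cuts the pre-ribosomal RNA, 69 were lower and none was higher, with a median of -1.20. Of 80 genes of large subunit assembly, 76 were lower and none was higher, with a median of -1.21. Over all genes tested the median change was 0.01. NSR1 had 118, 131 and 442 CPM at time point 3, against 1019, 1104 and 933 CPM at time point 2. Its third-cycle value at time point 3 lay between the other time point 3 values and those of time point 2, and the groups did not overlap. The fold change was -2.15 ± 0.42 (edgeR adjusted p = 0.00521). DBP2, an RNA helicase, had 137, 154 and 489 CPM at time point 3, against 981, 1076 and 897 CPM at time point 2, with a fold change of -1.92 ± 0.42 (edgeR adjusted p = 0.00784). DHR2, a helicase of the small subunit pathway, changed by -1.82 ± 0.40 (edgeR adjusted p = 0.00775). The small subunit list as used also holds IMP1, whose symbol in yeast belongs to a mitochondrial inner membrane protease gene. It further holds genes that act after the processome, such as NOB1, RIO1, RIO2, LTV1 and TSR1. The large subunit list holds the small subunit genes BUD22, BUD23, TSR2, TSR3 and TSR4, so both lists are broader than their names.

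In large subunit assembly, NOG2, a GTPase of the pre-60S particle, had 55.1, 52.8 and 175 CPM at time point 3, against 307, 361 and 287 CPM at time point 2. All 3 time point 3 values were lower than every time point 2 value, and the first and second cycles were lowest. NOG2 changed by -1.76 ± 0.38 (edgeR adjusted p = 0.00737), RSA4 by -1.96 ± 0.35 (edgeR adjusted p = 0.00392) and BUD20, a pre-60S shuttling factor, by -1.97 ± 0.32 (edgeR adjusted p = 0.00298). Within cycles, the median over the large subunit list was -1.80, -1.70 and -0.40 in cycles 1, 2 and 3, and over the small subunit list -1.82, -1.81 and -0.36. Without the third-cycle library of time point 3 the medians over all libraries left were -1.68 and -1.73, with 79 of 80 and 70 of 71 genes lower, and without its second-cycle library 40 and 39 were lower. In WT, the medians were -3.12 and -3.04.

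RNA polymerases I and III, which make ribosomal and transfer RNA, had 22 of 37 tested genes lower and 1 higher, with a median of -0.79. Without the second-cycle library of time point 3, 11 were lower. RRN11, a subunit of the core factor that recruits polymerase I, had 7.295, 6.25 and 21.9 CPM at time point 3, against 52.9, 45.99 and 60.9 CPM at time point 2 and changed by -2.17 ± 0.39 (edgeR adjusted p = 0.00391). RPC19, shared by polymerases I and III, had 25.7, 23.6 and 47.04 CPM at time point 3, against 84.02, 89.2 and 66.7 CPM at time point 2 and changed by -1.32 ± 0.21 (edgeR adjusted p = 0.00258). Both genes were lower in every library of time point 3, least so in the third cycle. The polymerase I subunit RPA49 changed by -1.36 ± 0.33 (edgeR adjusted p = 0.0116), a call lost without the second-cycle library of time point 3. TFC3, a subunit of the polymerase III factor TFIIIC, was higher by 0.38 ± 0.13 (edgeR adjusted p = 0.0403), with overlapping values and a call that was lost when any of 5 of the 6 W89A libraries was left out (all but the third cycle of time point 3).

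Regulators of ribosomal genes divided. IFH1, the coactivator of ribosomal protein genes, had 22.4, 22.6 and 50.3 CPM at time point 3, against 107, 96.6 and 111 CPM at time point 2. No value overlapped, and the fold change was -1.72 ± 0.29 (edgeR adjusted p = 0.00321). TOD6, the PAC-binding repressor, also fell, with a change of -1.42 ± 0.36 (edgeR adjusted p = 0.0152). STB3, the RRPE-binding repressor, rose, with a change of 0.56 ± 0.17 (edgeR adjusted p = 0.0238). UTP22, which joins Ifh1 and casein kinase 2 in a complex as well as the processome, fell, with a change of -0.89 ± 0.24 (edgeR adjusted p = 0.0173). HMO1 changed by -0.39 ± 0.12 (edgeR adjusted p = 0.0343), CKA2 by -0.42 ± 0.13 (edgeR adjusted p = 0.0303) and CKB1 by -0.39 ± 0.11 (edgeR adjusted p = 0.0215). SFP1, FHL1, DOT6, CRF1, RAP1, SCH9, CKA1 and CKB2 did not pass the test, with changes between -0.34 and 0.27. Of these 7 calls only that of IFH1 held when any single W89A library was left out. The calls of TOD6, STB3, UTP22, HMO1, CKA2 and CKB1 were lost without the first-cycle or second-cycle library of time point 3. Those of STB3, UTP22, HMO1, CKA2 and CKB1 were also lost without the second-cycle library of time point 2, those of UTP22, HMO1 and CKA2 without its first-cycle library, and that of CKA2 without its third-cycle library.

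Genes for the ribosomal proteins themselves changed little. Of 137, 9 were lower (6.57%, against 15% of all genes tested) and none was higher, with a median of -0.15. Their summed share of all counts was 13.1%, 15.2% and 17.5% at time point 3 in cycles 1, 2 and 3, against 15.6%, 17.4% and 14.3% at time point 2. The shares overlapped between time points, and the third cycle ran against the other cycles: the list's median change was -0.41, -0.39 and 0.32. Without the third-cycle library of time point 3, 27 of the genes were lower, with a median of -0.31, and without its second-cycle library 3 were. In WT, 135 of the 137 genes were lower, with a median of -1.65. RPL43A had 0.287, 0.323 and 0.477 CPM at time point 3, against 2.85, 1.48 and 2.52 CPM at time point 2, with a fold change of -2.63 ± 0.51 (edgeR adjusted p = 0.00423), and RPL22A had 2.07, 3.61 and 5.52 CPM at time point 3, against 9.42, 11.2 and 11.3 CPM at time point 2, with -1.50 ± 0.33 (edgeR adjusted p = 0.00652). RPL43A and RPL22A thus had few counts, and both overlap a gene on the opposite strand. RPS9A, with means of 227.5 CPM at time point 3 and 444.9 CPM at time point 2, changed by -0.97 ± 0.20 (edgeR adjusted p = 0.00576). Most yeast ribosomal proteins are encoded by near-identical gene pairs, so reads may be split unevenly between copies.

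Translation factors had 14 of 40 tested genes lower and none higher, with a median of -0.45, and 26 lower without the third-cycle library of time point 3 but 4 without its first-cycle or second-cycle library. ANB1, the copy of translation factor eIF5A that is expressed when oxygen is low, had 1.61, 1.24 and 1.64 CPM at time point 3, against 8.49, 11.4 and 4.19 CPM at time point 2. Its values did not overlap, and the change was -2.41 ± 0.42 (edgeR adjusted p = 0.00286). DED1, a helicase of translation initiation, changed by -0.71 ± 0.17 (edgeR adjusted p = 0.00855) and GCN3, a subunit of eIF2B, by -0.70 ± 0.18 (edgeR adjusted p = 0.0127). Of 21 tRNA synthetases, which load amino acids onto tRNA, 5 were lower (23.8%, against 15% of all genes tested) and none was higher. Without the third-cycle library of time point 3, 12 were lower, and without the first-cycle or second-cycle library of either time point none was. GLN4 changed by -0.72 ± 0.20 (edgeR adjusted p = 0.0191), WRS1 by -0.50 ± 0.15 (edgeR adjusted p = 0.0279) and FRS1 by -0.48 ± 0.16 (edgeR adjusted p = 0.0422). The calls of GCN3, GLN4, WRS1 and FRS1 were lost without the first-cycle or the second-cycle library of time point 3. Those of the 3 synthetase genes were also lost without the first-cycle or second-cycle library of time point 2, and that of FRS1 without its third-cycle library.

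**Figure D3:**
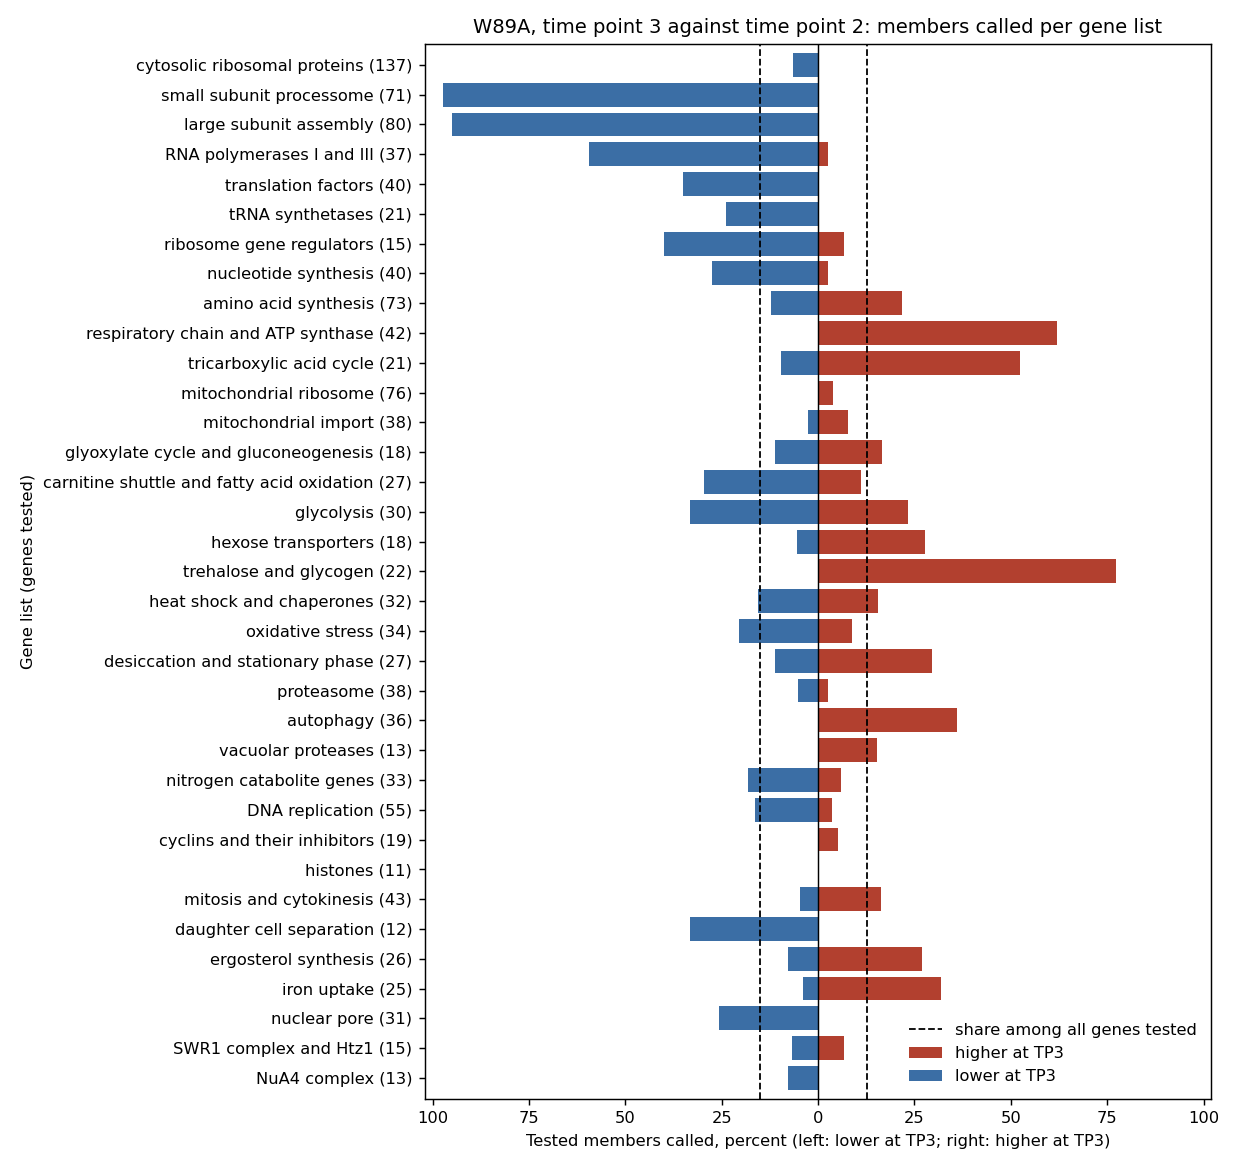
Tested members of each gene list called higher (red, right) or lower (blue, left) in W89A at time point 3 against time point 2, in percent, with the number tested in parentheses. Dashed lines mark the shares among all genes tested, 12.8% higher and 15% lower; the longest bars are the small subunit processome at 97.2% lower and trehalose and glycogen at 77.3% higher.

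Nucleotide synthesis had 11 of 40 genes lower (27.5%, against 15% of all genes tested) and 1 higher, with a median of -0.25. Without the third-cycle library of time point 3, 19 were lower, and without its first-cycle library 6 were. URA7, which makes CTP from UTP, had 89.2, 109 and 280.3 CPM at time point 3, against 481, 583 and 452 CPM at time point 2. The time point 3 values were all below those of time point 2, with the third cycle closest, and the change was -1.66 ± 0.38 (edgeR adjusted p = 0.009). IMD4, an IMP dehydrogenase of GTP synthesis, changed by -1.46 ± 0.26 (edgeR adjusted p = 0.00328) and MIS1, the mitochondrial one-carbon enzyme, by -1.10 ± 0.23 (edgeR adjusted p = 0.00553). GUA1, GMP synthase, changed by -1.02 ± 0.29 (edgeR adjusted p = 0.0199). IMD2, another IMP dehydrogenase, was higher by 0.60 ± 0.16 (edgeR adjusted p = 0.0138). AAH1, adenine deaminase of purine salvage, is outside the list and was among the 15 largest falls, with 111, 123 and 337 CPM at time point 3, against 849.6, 932 and 749 CPM at time point 2 and a change of -2.15 ± 0.37 (edgeR adjusted p = 0.00355). The calls of GUA1 and IMD2 were lost without the first-cycle or second-cycle library of time point 3, and that of GUA1 also without either of these cycles at time point 2.

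Of 73 genes of amino acid synthesis 16 were higher (21.9%, against 12.8% of all genes tested) and 9 lower (12.3%, against 15%), with a median of 0.13. Without the second-cycle library of time point 3, 5 were higher and 4 lower, and without its third-cycle library 14 were lower. HIS4 had 1610, 1712 and 1437 CPM at time point 3, against 1027, 971 and 641 CPM at time point 2. Each time point 3 value exceeded each time point 2 value, and the change was 0.85 ± 0.19 (edgeR adjusted p = 0.00713). ARG7 of arginine synthesis changed by 0.79 ± 0.16 (edgeR adjusted p = 0.00526) and ARO1, the multifunctional enzyme of aromatic amino acids, by 0.77 ± 0.15 (edgeR adjusted p = 0.0044). The first steps of sulfate assimilation went the other way. MET3, ATP sulfurylase, had 281, 312 and 493 CPM at time point 3, against 901, 987 and 1001 CPM at time point 2, with no overlap and a change of -1.41 ± 0.22 (edgeR adjusted p = 0.00209). MET14, adenylylsulfate kinase, changed by -1.08 ± 0.20 (edgeR adjusted p = 0.00342). In WT the change of MET3 was 0.47 ± 0.22 (edgeR adjusted p = 0.0804) and that of HIS4 was 0.07 ± 0.19 (edgeR adjusted p = 0.777). The strain difference in the change was -1.88 ± 0.31 (edgeR adjusted p = 0.00186) for MET3 and 0.78 ± 0.27 (edgeR adjusted p = 0.0373) for HIS4.

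Reserve carbohydrate genes rose. Of 22 genes for trehalose and glycogen 17 were higher and none was lower, with a median of 1.07. Without the second-cycle library of time point 3, 8 were higher. GLC3, the glycogen branching enzyme, had 164, 188 and 54.6 CPM at time point 3, against 19.95, 16.97 and 33.2 CPM at time point 2. Its third-cycle value at time point 3 was the lowest of that group and still above all of time point 2, and the change was 2.53 ± 0.40 (edgeR adjusted p = 0.0025). GSY1, a glycogen synthase, had 79.8, 88.1 and 21.6 CPM at time point 3, against 12.3, 14.4 and 13.7 CPM at time point 2 and changed by 2.23 ± 0.40 (edgeR adjusted p = 0.00395). TSL1, a regulatory subunit of the trehalose synthase complex, had 249, 252 and 52.1 CPM at time point 3, against 48.5, 35.99 and 47.1 CPM at time point 2. There the third-cycle value of time point 3 exceeded the highest time point 2 value by a small margin, and the change was 2.07 ± 0.44 (edgeR adjusted p = 0.0073). GAC1, which directs the phosphatase Glc7 to glycogen synthase, changed by 1.75 ± 0.32 (edgeR adjusted p = 0.00401). The list's median within cycles was 1.40, 1.65 and -0.01 in cycles 1, 2 and 3, so the third cycle showed no rise in the median. The list's summed share of counts was 0.288%, 0.281% and 0.122% at time point 3, against 0.0979%, 0.0885% and 0.133% at time point 2.

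The rest of the 15 genes with the largest rises included signalling and mitochondrial genes. ISF1 had the largest rise among them, with 188, 211 and 108 CPM at time point 3, against 19.9, 18.6 and 36.8 CPM at time point 2. All cycles were higher at time point 3, and the change was 2.75 ± 0.31 (edgeR adjusted p = 0.00109). GPD1, the glycerol 3-phosphate dehydrogenase of glycerol synthesis, had 447, 483 and 113 CPM at time point 3, against 69.2, 73.5 and 95.3 CPM at time point 2 and changed by 2.13 ± 0.47 (edgeR adjusted p = 0.00825). SAP4, a partner of the phosphatase Sit4, changed by 2.04 ± 0.34 (edgeR adjusted p = 0.00258), the ceramidase YPC1 by 1.89 ± 0.37 (edgeR adjusted p = 0.00527) and the zinc finger regulator USV1 by 1.78 ± 0.32 (edgeR adjusted p = 0.00395). PIC2, a mitochondrial carrier, had 80.9, 83.1 and 39.4 CPM at time point 3, against 20.1, 18.8 and 16.4 CPM at time point 2 and changed by 1.88 ± 0.24 (edgeR adjusted p = 0.00131). MPF1, AIM17 and RGI1 changed by 1.88, 1.81 and 1.73. All 15 calls held when any single W89A library was left out.

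Respiration rose in most of its genes. Of 42 tested genes of the respiratory chain and ATP synthase 26 were higher and none was lower, with a median of 0.51 and with medians of 0.64, 0.58 and 0.26 in cycles 1, 2 and 3. Leaving out the third-cycle library of time point 3 gave 32 higher, and leaving out its second-cycle library gave 12. COX26, a small subunit of cytochrome c oxidase, had 73.2, 74.9 and 17.4 CPM at time point 3, against 15.4, 14.8 and 14.2 CPM at time point 2, so the third-cycle value of time point 3 was close to those of time point 2. COX26 changed by 1.90 ± 0.41 (edgeR adjusted p = 0.00772), NDI1, the internal NADH dehydrogenase, by 1.20 ± 0.18 (edgeR adjusted p = 0.00172) and COX5B, the oxygen-repressed form of a cytochrome oxidase subunit, by 0.98 ± 0.19 (edgeR adjusted p = 0.00447). The list's share of counts was 3.50%, 3.35% and 2.64% at time point 3, against 1.99%, 1.96% and 2.26% at time point 2, with no overlap.

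In the tricarboxylic acid cycle 11 of 21 genes were higher and 2 lower, with a median of 0.35. Aconitase, ACO1, had 6608, 6786 and 4588 CPM at time point 3, against 2584, 2653 and 2778 CPM at time point 2. The 3 values of each time point were separate, and the change was 1.17 ± 0.16 (edgeR adjusted p = 0.00131). IDH2, a subunit of NAD-dependent isocitrate dehydrogenase, changed by 1.22 ± 0.17 (edgeR adjusted p = 0.00131) and MDH1, mitochondrial malate dehydrogenase, by 1.05 ± 0.18 (edgeR adjusted p = 0.00273). MAE1, the malic enzyme, was lower, with a change of -1.06 ± 0.23 (edgeR adjusted p = 0.00618). CIT3, a mitochondrial citrate synthase, was also lower, with a change of -1.38 ± 0.36 (edgeR adjusted p = 0.0157), and lost its call without any 1 library of time point 3 or without the third-cycle library of time point 2.

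Genes of the mitochondrial ribosome barely moved in W89A, with a median of 0.15. There 3 of 76 were higher (3.95%, against 12.8% of all genes tested) and none lower. In WT 74 of these 76 genes were higher, with a median of 0.93. The strain difference in the change was called for 63 of the 76, each with a smaller value in W89A. The 3 genes were MRP8 with 0.58 ± 0.19 (edgeR adjusted p = 0.0383), MRPL9 with 0.34 ± 0.11 (edgeR adjusted p = 0.0379) and MRPS17 with 0.31 ± 0.10 (edgeR adjusted p = 0.0358). The list was drawn by gene symbol alone, and MRP8 was not checked to encode a protein of that ribosome. Mitochondrial import had 3 of 38 genes higher (7.89%, against 12.8% of all genes tested) and 1 lower (2.63%, against 15%). The chaperone genes MDJ1 and SSC1 changed by 0.63 ± 0.18 (edgeR adjusted p = 0.0185) and 0.42 ± 0.14 (edgeR adjusted p = 0.0452). ERV1 changed by 0.49 ± 0.13 (edgeR adjusted p = 0.0177) and TIM21 by -0.34 ± 0.11 (edgeR adjusted p = 0.032). All 7 calls were lost without the first-cycle or the second-cycle library of time point 3. All but that of ERV1 were lost without the first-cycle or second-cycle library of time point 2. The third-cycle library of time point 2 was needed for the calls of ERV1, MRPS17 and TIM21, and that of time point 3 for those of MRPL9 and TIM21.

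Genes for growth on acetate, ethanol and fat differed widely between cycles. In the glyoxylate cycle and gluconeogenesis 3 of 18 genes were higher (16.7%) and 2 lower (11.1%), close to the 12.8% and 15% of all genes tested. The list's median was 0.38, with medians of 1.01, 0.86 and -0.67 in cycles 1, 2 and 3. With both third-cycle libraries left out, 11 were higher and 1 lower. The genes that rose encode regulators: CAT8 changed by 1.19 ± 0.26 (edgeR adjusted p = 0.0073), SIP4 by 1.12 ± 0.19 (edgeR adjusted p = 0.0025) and ADR1 by 1.08 ± 0.23 (edgeR adjusted p = 0.00604). ADR1, an activator of ADH2 and of fat oxidation genes, had 501, 467 and 284 CPM at time point 3, against 181, 161 and 248 CPM at time point 2, with no overlap. IDP3, the peroxisomal isocitrate dehydrogenase, changed by -1.76 ± 0.59 (edgeR adjusted p = 0.0439) and DAL7, a malate synthase of allantoin use, by -1.19 ± 0.29 (edgeR adjusted p = 0.0116). The call of IDP3 was lost without any library of time point 3 or without the second-cycle or third-cycle library of time point 2, and that of DAL7 without the first-cycle or second-cycle library of time point 3.

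ADH2, the alcohol dehydrogenase that oxidises ethanol, had the largest fall of the genes named here, with 71.5, 72.4 and 97.1 CPM at time point 3, against 510.3, 668 and 1203 CPM at time point 2. The time point 3 values lay close together and far below those of time point 2, whose third-cycle value was the highest. The change was -3.31 ± 0.55 (edgeR adjusted p = 0.00321), against -0.39 ± 0.51 (edgeR adjusted p = 0.531) in WT. Of 27 carnitine shuttle and fatty acid oxidation genes 8 were lower (29.6%, against 15% of all genes tested) and 3 higher (11.1%, against 12.8%), with a median of -0.47. Without the third-cycle library of time point 3, 2 were lower and 5 higher. The first-cycle and second-cycle libraries of time point 3 and the third-cycle library of time point 2 each left 2 lower as well when dropped. FOX2, the multifunctional enzyme of peroxisomal oxidation, had 21.5, 18.3 and 18.9 CPM at time point 3, against 57.1, 54.8 and 177 CPM at time point 2 and changed by -2.30 ± 0.62 (edgeR adjusted p = 0.0184). SPS19, a dienoyl-CoA reductase, changed by -1.79 ± 0.41 (edgeR adjusted p = 0.00906) and POT1, the thiolase, by -1.55 ± 0.43 (edgeR adjusted p = 0.0216). AGP2, a plasma membrane regulator of carnitine uptake, rose, with a change of 1.51 ± 0.27 (edgeR adjusted p = 0.00395), and OAF1, an activator of oleate-induced genes, by 0.37 ± 0.11 (edgeR adjusted p = 0.0211). The third-cycle library of time point 2 was the highest of its group for FOX2, and without it, or without any 1 library of time point 3, the calls of FOX2 and POT1 were lost. OAF1 lost its call without the first-cycle or second-cycle library of time point 3 or the second-cycle library of time point 2.

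Glycolysis and fermentation had 7 of 30 genes higher (23.3%, against 12.8% of all genes tested) and 10 lower (33.3%, against 15%), with a median of -0.23. Without the first-cycle library of time point 3, 1 was higher and 6 were lower. Beside ADH2, PDC6, a minor pyruvate decarboxylase, had 10.2, 12.2 and 19.6 CPM at time point 3, against 49.4, 64.3 and 95.4 CPM at time point 2 and changed by -2.31 ± 0.47 (edgeR adjusted p = 0.00614). TDH1, a glyceraldehyde 3-phosphate dehydrogenase, changed by -1.78 ± 0.52 (edgeR adjusted p = 0.0262). The sugar kinases GLK1 and HXK1 went up, by 1.57 ± 0.41 (edgeR adjusted p = 0.0156) and 1.46 ± 0.42 (edgeR adjusted p = 0.0234), with overlapping values. The calls of GLK1 and HXK1 were lost without the first-cycle or second-cycle library of either time point, and that of TDH1 without any library of time point 3 or the third-cycle library of time point 2. Of 18 hexose transporters tested 5 were higher (27.8%, against 12.8% of all genes tested) and 1 lower (5.56%, against 15%). Without the second-cycle library of time point 3, 1 was higher. HXT13 changed by 1.88 ± 0.47 (edgeR adjusted p = 0.0118), HXT17 by 1.86 ± 0.60 (edgeR adjusted p = 0.035), HXT6 by 1.18 ± 0.29 (edgeR adjusted p = 0.0118) and the glucose sensor RGT2 by -0.33 ± 0.11 (edgeR adjusted p = 0.0466). Each of these 4 calls was lost without the second-cycle library of time point 3. Those of HXT17, HXT6 and RGT2 were lost also without its first-cycle library, those of HXT17 and RGT2 without the first-cycle or second-cycle library of time point 2, and that of RGT2 without its third-cycle library. HXT6 shares nearly all of its sequence with HXT7.

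Of 32 heat shock and chaperone genes 5 were higher and 5 lower (15.6% each), close to the shares of 12.8% higher and 15% lower among all genes tested, with cycle medians of 0.62, 0.47 and -0.56. Without the second-cycle library of time point 3, 3 were higher and 1 lower, and without both third-cycle libraries 16 were higher and 5 lower. HSP78, the mitochondrial disaggregase, had 452, 430.1 and 186 CPM at time point 3, against 122, 106 and 167 CPM at time point 2 and changed by 1.43 ± 0.29 (edgeR adjusted p = 0.00574). MBF1, a coactivator, changed by 1.34 ± 0.25 (edgeR adjusted p = 0.00405) and the co-chaperone gene APJ1 by 1.07 ± 0.13 (edgeR adjusted p = 0.00109). HSP26, a small heat shock protein, was lower, with a change of -1.96 ± 0.66 (edgeR adjusted p = 0.0466), as was the Hsp70 gene SSA3, with -1.46 ± 0.43 (edgeR adjusted p = 0.0258). Of 34 oxidative stress genes 3 were higher (8.82%) and 7 lower (20.6%). Without the third-cycle library of time point 3, 7 were higher and 8 lower, and without its first-cycle library 2 were higher and 3 lower. HYR1, a thiol peroxidase, changed by -1.04 ± 0.18 (edgeR adjusted p = 0.00298), GTT1, a glutathione transferase, by -1.35 ± 0.28 (edgeR adjusted p = 0.0066) and MXR1, a methionine sulfoxide reductase, by -0.92 ± 0.14 (edgeR adjusted p = 0.00197). SRX1, sulfiredoxin, was higher, with 12.9, 13.4 and 5.83 CPM at time point 3, against 3.78, 3.27 and 2.796 CPM at time point 2 and a change of 1.70 ± 0.33 (edgeR adjusted p = 0.00427), as was the glutaredoxin gene GRX4, with 0.50 ± 0.10 (edgeR adjusted p = 0.00472). The calls of HSP26 and SSA3 were lost without any 1 library of time point 3 or the third-cycle library of time point 2, and that of HSP26 also without the second-cycle library of time point 2.

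Desiccation and stationary phase genes had 8 of 27 members higher (29.6%, against 12.8% of all genes tested) and 3 lower (11.1%, against 15%), with a median of 0.02. Without the third-cycle library of time point 3, 10 were higher and none lower. Without its first-cycle or its second-cycle library, 3 were higher and none lower. TMA10 changed by 1.44 ± 0.22 (edgeR adjusted p = 0.00209), RTC3 by 1.47 ± 0.37 (edgeR adjusted p = 0.0129) and PNS1 by 1.04 ± 0.31 (edgeR adjusted p = 0.0266). GRE1 and SIP18, which encode hydrophilins of dry cells, were lower. GRE1 had 7.18, 8.999 and 11.2 CPM at time point 3, against 22.6, 28.4 and 126 CPM at time point 2, and SIP18 had 2.59, 1.02 and 3.18 CPM at time point 3, against 4.83, 7.53 and 29.1 CPM at time point 2. Both had their highest value in the third cycle of time point 2. Their changes were -2.69 ± 0.77 (edgeR adjusted p = 0.0242) and -2.61 ± 0.86 (edgeR adjusted p = 0.0421), and that of SPG4 was -1.47 ± 0.42 (edgeR adjusted p = 0.0225). The calls of GRE1, SIP18 and SPG4 were lost without any 1 library of time point 3 or the third-cycle library of time point 2, and that of SIP18 also without the second-cycle library of time point 2. RTC3 and PNS1 had overlapping values and lost their calls without the first-cycle or second-cycle library of time point 3 or the second-cycle library of time point 2, PNS1 also without its first-cycle library.

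Of 36 autophagy genes tested, 13 were higher and none lower, with a median of 0.40 and cycle medians of 0.65, 0.63 and -0.02. Without the second-cycle library of time point 3, 4 were higher. ATG7, the enzyme that starts the conjugation of Atg8 and Atg12, had 27.2, 30.5 and 16.4 CPM at time point 3, against 8.98, 7.04 and 15.4 CPM at time point 2 and changed by 1.23 ± 0.30 (edgeR adjusted p = 0.0108). ATG42 changed by 1.37 ± 0.32 (edgeR adjusted p = 0.00996) and ATG39, a receptor for nuclear envelope autophagy, by 1.20 ± 0.41 (edgeR adjusted p = 0.0498). Of 13 genes listed with vacuolar proteases 2 were higher (15.4%, close to the 12.8% of all genes tested), ATG42 and APE1. APE1 changed by 1.0 ± 0.26 (edgeR adjusted p = 0.0158). The list also holds the protease inhibitor genes PBI2 and PAI3, the mannosidase gene AMS1 and the sorting receptor gene VTH1, so it is broader than its name. The call of ATG7 was lost without the second-cycle library of time point 3. APE1 and ATG39 lost theirs without the first-cycle or second-cycle library of either time point, and ATG39 also without the third-cycle library of time point 3. The proteasome had 1 of 38 genes higher (2.63%, against 12.8% of all genes tested) and 2 lower (5.26%, against 15%). Its activator RPN4 changed by 0.64 ± 0.14 (edgeR adjusted p = 0.00589), RPT4 by -0.37 ± 0.10 (edgeR adjusted p = 0.0133) and BLM10 by -0.41 ± 0.13 (edgeR adjusted p = 0.0283). RPT4 and BLM10 lost their calls without the second-cycle library of time point 3, and BLM10 also without the third-cycle library of either time point or the first-cycle library of time point 2.

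Nitrogen catabolite genes had 6 of 33 tested members lower (18.2%, close to the 15% of all genes tested) and 2 higher (6.06%, against 12.8%). The list's median was -0.19. Without the third-cycle library of time point 3, 12 were lower and 1 higher, and without its second-cycle library 2 were lower. MEP3, an ammonium transporter, changed by -0.87 ± 0.16 (edgeR adjusted p = 0.00368), DAL4, the allantoin permease, by -1.38 ± 0.36 (edgeR adjusted p = 0.0158) and GAP1 by -1.18 ± 0.40 (edgeR adjusted p = 0.044). GAP1 had 140.4, 179 and 299 CPM at time point 3, against 379, 455 and 573 CPM at time point 2. PUT4, the proline permease, was higher by 1.28 ± 0.33 (edgeR adjusted p = 0.0152) with overlapping values, and the GATA activator gene GLN3 by 0.38 ± 0.13 (edgeR adjusted p = 0.0446). Of these calls that of MEP3 held without any single W89A library, and the other 4 were lost without the first-cycle or second-cycle library of time point 3 or the second-cycle library of time point 2. Further losses came without the first-cycle library of time point 2 for GAP1 and PUT4, without its third-cycle library for GAP1 and GLN3, and without the third-cycle library of time point 3 for GLN3.

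Other genes with large falls were transporters and enzymes of several pathways. AQR1, an exporter of amino acids and drugs, had 14.4, 16.3 and 32.6 CPM at time point 3, against 162, 184 and 191 CPM at time point 2. The time point 2 values were all far above those of time point 3, and the change was -3.09 ± 0.46 (edgeR adjusted p = 0.00209). ZRT1, the high-affinity zinc transporter, had 30.9, 33.4 and 78.6 CPM at time point 3, against 207, 252 and 209.6 CPM at time point 2 and changed by -2.22 ± 0.35 (edgeR adjusted p = 0.0025). FDH1, formate dehydrogenase, had 29.4, 27.97 and 26.99 CPM at time point 3, against 128, 176 and 276 CPM at time point 2 and changed by -2.78 ± 0.43 (edgeR adjusted p = 0.00242). All cycles were lower at time point 3 for both genes. DUG3, a glutathione-degrading enzyme, changed by -2.25 ± 0.33 (edgeR adjusted p = 0.00209), the pheromone-regulated gene PRM7 by -2.98 ± 0.45 (edgeR adjusted p = 0.00227), GFD2 by -2.38 ± 0.45 (edgeR adjusted p = 0.00468) and BSC1 by -2.73 ± 0.71 (edgeR adjusted p = 0.0158). The call of BSC1 was lost without the first-cycle or second-cycle library of time point 3.

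**Figure D4:**
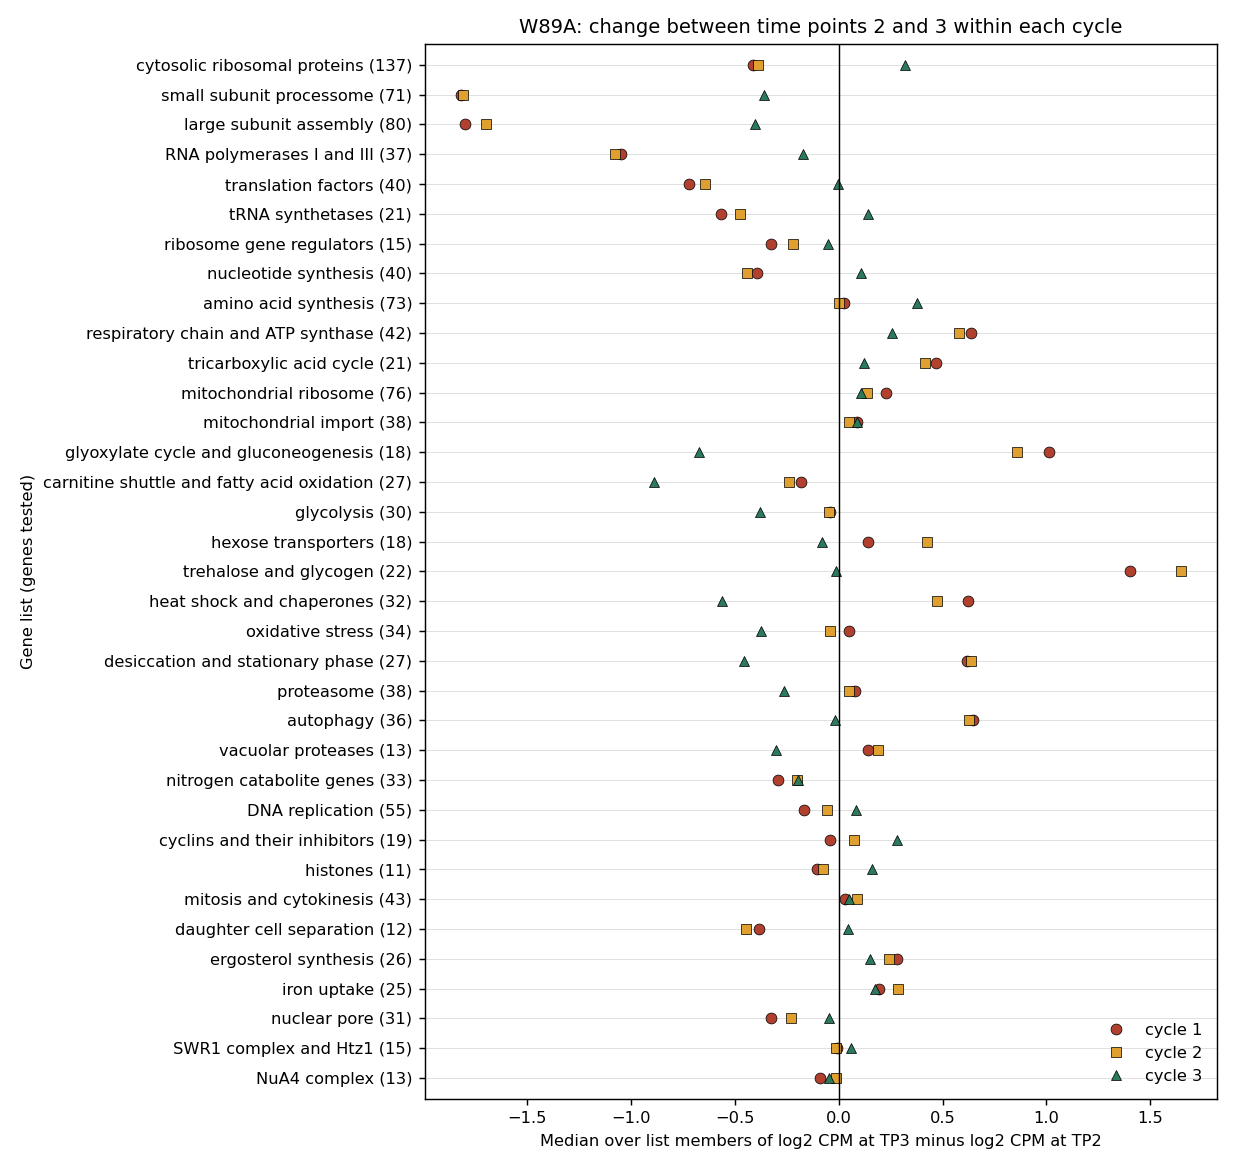
Median over list members of log2 CPM at time point 3 minus log2 CPM at time point 2 in W89A, for cycle 1 (circle), cycle 2 (square) and cycle 3 (triangle). The first and second cycles lie close together, and the third cycle lies nearer to 0 for ribosome assembly (-0.36 for the small subunit processome) and on the other side of 0 for the glyoxylate cycle and gluconeogenesis (-0.67 against 1.01 and 0.86).

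Lists of cell division genes followed. Of 55 DNA replication genes 9 were lower (16.4%, against 15% of all genes tested) and 2 higher (CSM3 and POL2), with a median of -0.03. Without the third-cycle library of time point 3, 15 were lower and 1 higher, and without its first-cycle library or the second-cycle library of time point 2, 4 were lower. ORC3 of the origin recognition complex changed by -1.05 ± 0.21 (edgeR adjusted p = 0.00449), and the ribonucleotide reductase genes RNR2 and RNR4 by -0.74 ± 0.14 (edgeR adjusted p = 0.00395) and -0.63 ± 0.17 (edgeR adjusted p = 0.0181). Of 43 mitosis and cytokinesis genes 7 were higher (16.3%, against 12.8% of all genes tested) and 2 lower, with a median of 0.02. Without the first-cycle library of time point 3 or the second-cycle library of time point 2, 3 were higher, and without the third-cycle library of time point 3, 4 were lower. CHS2, chitin synthase of the septum, changed by 0.77 ± 0.14 (edgeR adjusted p = 0.00333), the deacetylase gene HST3 by 0.69 ± 0.13 (edgeR adjusted p = 0.00334) and CDC20, an activator of the anaphase-promoting complex, by 0.57 ± 0.14 (edgeR adjusted p = 0.0118). FKH2, a regulator of mitotic genes, was lower, with a change of -0.49 ± 0.11 (edgeR adjusted p = 0.0066). Of 19 genes listed with cyclins and their inhibitors 1 was higher (5.26%), SWI4 with 0.58 ± 0.17 (edgeR adjusted p = 0.0234). That list also holds CDC28, SWI6 and MBP1, and like SWI4 these encode no cyclin or inhibitor. Of 11 histone genes none passed the test. Of 12 genes listed for daughter cell separation, only some of which encode proteins that digest the septum, 4 were lower (33.3%, against 15% of all genes tested). Without the second-cycle library of time point 3 or the first-cycle or second-cycle library of time point 2, 2 were lower. Among the 4 were DSE4 with -0.99 ± 0.16 (edgeR adjusted p = 0.00209) and SCW11 with -0.81 ± 0.17 (edgeR adjusted p = 0.00552). Several of these calls depended on single libraries. Those of RNR4 and CDC20 were lost without the first-cycle library of time point 3 or the second-cycle library of time point 2. That of CSM3 was lost without the second-cycle library of time point 3 or the first-cycle or third-cycle library of time point 2, that of POL2 without any W89A library but the first cycle of time point 3, and that of SWI4 without the first-cycle or second-cycle library of time point 3 or the second-cycle or third-cycle library of time point 2.

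Genes of the complexes that hold Yaf9 were mostly not called, like most genes tested, of which 27.8% were called. In SWR1 with HTZ1, 1 of 15 was higher and 1 lower (6.67% each), and in NuA4 1 of 13 was lower (7.69%). Among all genes tested 12.8% were higher and 15% lower. BDF1, a bromodomain subunit of SWR1, changed by 0.40 ± 0.10 (edgeR adjusted p = 0.0115) and ARP4, an actin-related subunit of both complexes, by -0.41 ± 0.09 (edgeR adjusted p = 0.00763). SWR1 had a change of 0.12 ± 0.13 (edgeR adjusted p = 0.532) and HTZ1 of 0.24 ± 0.15 (edgeR adjusted p = 0.271), and the values of both genes overlapped between time points.

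The change between these time points was then set against that of WT, where 3754 genes were called (61.1% of all genes tested), of which 1834 were higher (29.9%) and 1920 lower (31.3%). Of the 784 genes called higher in W89A, 597 were also higher in WT, 24 were lower and 163 were not called. Of the 922 called lower in W89A, 792 were also lower in WT, 24 were higher and 106 were not called. A further 2317 genes were called in WT and not in W89A. The strain difference in the change, tested in the same fit, was called for 2068 genes (33.7%), with a higher value in W89A for 1120 (18.2%) and a lower one for 948 (15.4%), and for 1287 of the 2317. The strain difference was called, with a higher value in W89A, for 128 of 137 ribosomal protein genes, 68 of 71 small subunit and 77 of 80 large subunit genes. It was called with a lower value in W89A for 16 of 18 genes of the glyoxylate cycle and gluconeogenesis, 17 of 21 of the tricarboxylic acid cycle, 22 of 27 of desiccation and 14 of 22 of trehalose and glycogen.

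**Figure D5:**
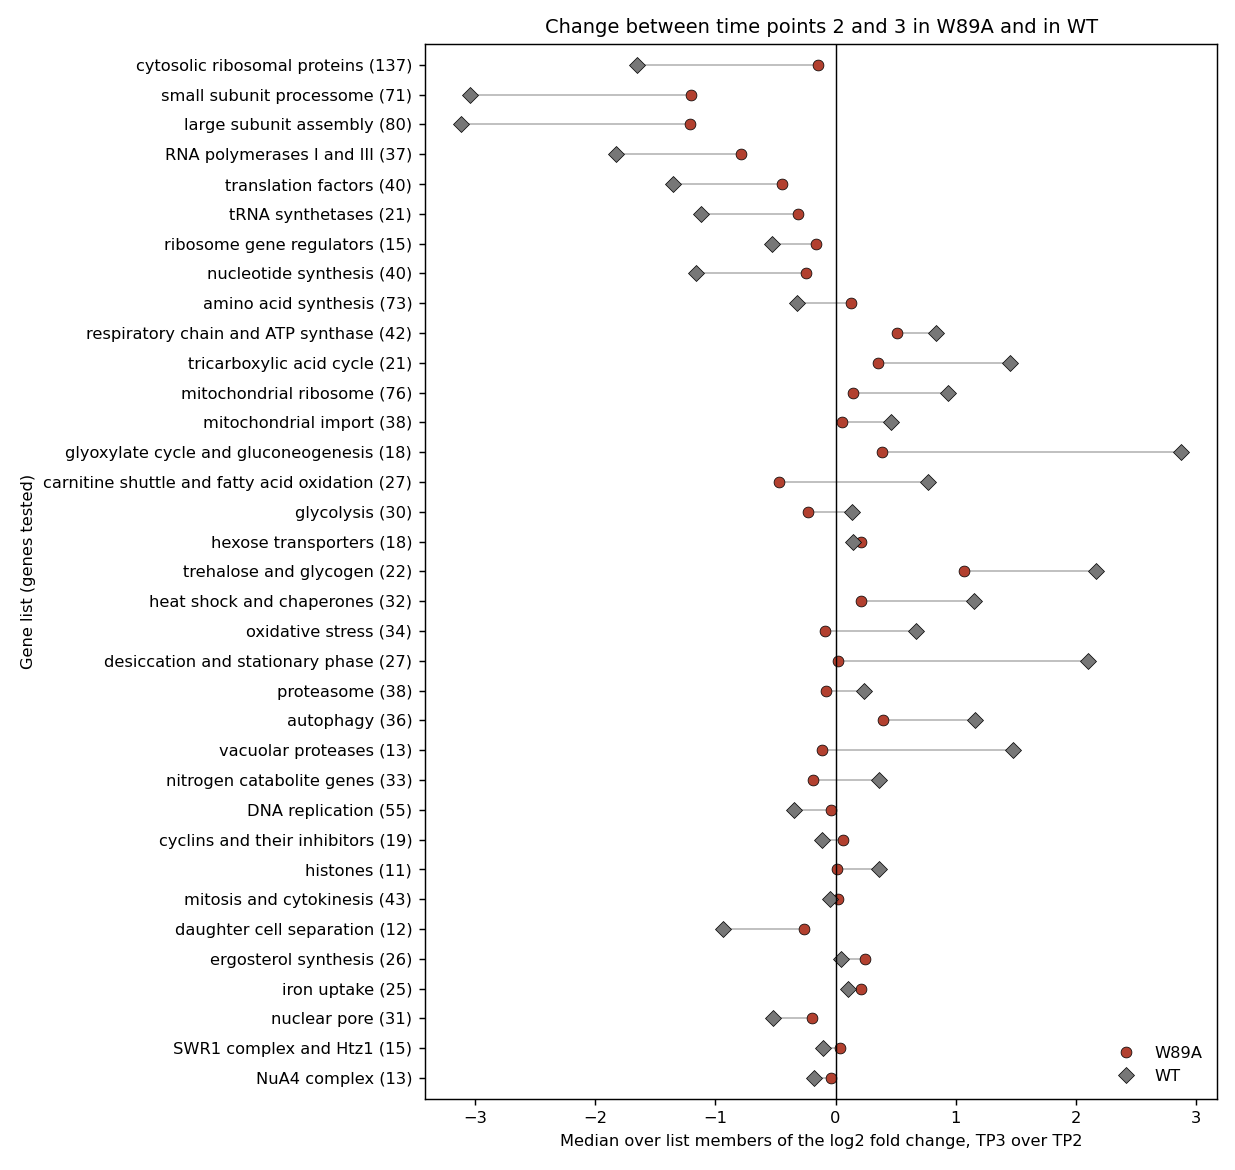
Median over list members of the log2 fold change of time point 3 over time point 2 in W89A (circles) and in WT (diamonds). For ribosome assembly the W89A medians of -1.20 and -1.21 lie closer to 0 than the WT medians of -3.04 and -3.12, and for the glyoxylate cycle and gluconeogenesis the medians are 0.38 in W89A and 2.88 in WT.

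Genes of acetate and fat use carried the largest strain differences with a lower value in W89A. ACS1, acetyl-CoA synthetase, had 228, 227 and 159 CPM at time point 3, against 276, 334 and 979 CPM at time point 2 in W89A. In WT it had 1788, 1391 and 1886 CPM at time point 3, against 44.7, 75.4 and 289.7 CPM at time point 2. The WT values at time point 3 were above all others, and the W89A values of time point 3 were below all W89A values of time point 2. The strain difference was -5.0 ± 0.92 (edgeR adjusted p = 0.00273). ADY2, an acetate transporter, differed by -5.39 ± 0.87 (edgeR adjusted p = 0.00198), CAT2, carnitine acetyltransferase, by -4.51 ± 0.81 (edgeR adjusted p = 0.00253) and CRC1, the mitochondrial carnitine carrier, by -3.54 ± 0.64 (edgeR adjusted p = 0.00259). None of these 4 genes passed the test in W89A alone, where their changes were -1.38, -1.57, -1.29 and -0.16.

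The largest strain difference with a higher value in W89A was that of HXT4, a high-affinity glucose transporter. HXT4 had 121, 148 and 165 CPM at time point 3, against 181, 174 and 242 CPM at time point 2 in W89A. In WT it had 12.7, 17.4 and 12.3 CPM at time point 3, against 461, 585 and 639.5 CPM at time point 2. The fall in WT reached below every W89A value, and the strain difference was 4.85 ± 0.27 (edgeR adjusted p = 9.33e-07), with a W89A change of -0.46 ± 0.18 (edgeR adjusted p = 0.0761). TPO2, a polyamine exporter, differed by 2.72 ± 0.31 (edgeR adjusted p = 0.000601) and DBP2 by 3.02 ± 0.59 (edgeR adjusted p = 0.00346). KRS1, the lysyl-tRNA synthetase gene, had 7.64, 7.38 and 13.2 CPM at time point 3, against 12.5, 12.3 and 10.5 CPM at time point 2 in W89A and 1.02, 1.195 and 0.779 CPM at time point 3, against 9.14, 7.55 and 8.11 CPM at time point 2 in WT, a strain difference of 2.73 ± 0.37 (edgeR adjusted p = 0.00094). The synthetase genes GLN4, WRS1 and FRS1 averaged 107.1, 169.3 and 279.8 CPM at time point 3 in W89A. Why KRS1 had so few counts was not tested.

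Strand was not stated, so counts of genes that overlap others are uncertain. On R64, NSR1 shares 584 bases with YGR160W, GPD1 257 with YDL023C, SPS19 473 with YNL203C, MAE1 388 with YKL030W, RPL43A 324 with OPI11, RPL22A 372 with BUD28, RPC19 285 with YNL114C, IDH2 251 with IRC14 and RGI1 138 with YER066C-A, all on opposite strands. Also on opposite strands, GLN4 shares 357 bases with YOR169C, MRPL9 303 with YGR219W and DAL7 268 with YIR030W-A. On the same strand, GLK1 shares 106 bases with YCL042W and HXK1 143 with YFR052C-A. NOG2 and IMD4 hold the small nucleolar RNA genes snR191 and snR54 on the same strand. ADH2 and PDC6 have close paralogs whose reads may be shared.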

How the data were processed

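Messenger RNA was measured by RNA sequencing. The authors deposited whole-number counts of reads per gene for 30 libraries; per the labels, 5 consecutive library numbers cover 1 cycle. Of 7127 features, 333 had no count and 6047 matched an R64 locus tag. The submitters' processing notes name only mm9, a mouse build; start and end of 5912 of 5921 genes equalled those of R64, so R64 was used. Aligner and counter: not given in the sources used here. In the authors' tables the W89A libraries of time points 4 and 5 are exchanged in cycle 1, so only the 12 libraries of time points 2 and 3 entered the fit.

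The counts as deposited were analysed with edgeR 4.0.16 (R 4.3.3): TMM, filterByExpr (987 features removed, 6140 kept), robust quasi-likelihood F tests on group means and Benjamini-Hochberg adjustment over all genes tested, with calls at 0.05. The common coefficient of variation was 0.1682. Log2 CPM used a prior count of 2. In simulated counts of known change, 88 of 100 genes changed 2-fold and 100 of 100 changed 4-fold were recovered in the W89A comparison, with 9 false calls among 197. The simulation changed only these genes, gave every gene the same coefficient of variation and held no library that stood apart. The real libraries differ in each respect, so these rates cannot be read as those of the comparison itself. DESeq2 1.42.0, other scalings, no filter, other sets of libraries, a replicate block and leaving out each library were alternatives.

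Named genes were the 15 highest and 15 lowest fold changes past the threshold with no overlap, at least 10 CPM in the higher group and a gene symbol, up to 3 per list in the direction of most of its calls and 2 in the other, the 8 highest and 8 lowest strain differences, YAF9, SWR1, HTZ1, the ribosomal regulators and mating type markers. The comparison, its members and the gene lists were chosen with earlier results of these data known. A gene that the naming rule selects is not reported here.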

Additional observations from a re-analysis of the deposited data

Results flagged for a closer look

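The change between time points 2 and 3 differed between W89A and WT, by the test of that difference in edgeR, for 2068 of 6140 genes. The 8 largest differences with a higher value in W89A, on the log2 scale, were 4.85 for HXT4 (glucose transport), 3.02 for DBP2, 2.81 for GAS2, 2.73 for KRS1, 2.72 for TPO2 (polyamine export), 2.71 for URA7, 2.67 for GUA1 and 2.67 for SNU13. The 8 largest with a lower value in W89A were -5.39 for ADY2 (acetate transport), -5.00 for ACS1, -4.51 for CAT2, -3.63 for ATO2, -3.57 for SPG4, -3.54 for CRC1, -3.54 for FOX2 and -3.53 for SIP18. In WT, ACS1, ADY2, CAT2, CRC1 and ATO2 each rose, by 3.63, 3.82, 3.22, 3.38 and 3.94. In W89A none of these 5 passed the test, with changes of -1.38, -1.57, -1.29, -0.16 and 0.31. GAS2, TPO2, HXT4 and KRS1 fell in WT, with changes of -2.05, -2.19, -5.31 and -3.05, and did not pass the test in W89A. GAS2 and KRS1 had low counts, with highest group means of 21.03 and 11.75 CPM. Of these 16 genes, 14 stayed called when any 1 of the 12 libraries was left out. The strain difference of FOX2 missed the threshold without the third-cycle W89A library of time point 3. That of SIP18 did so without any 1 W89A library of time point 3, without the third-cycle W89A library of time point 2, and without 4 of the 6 WT libraries.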

How the results depend on the processing

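The comparison of W89A time points gave 1706 calls, 784 higher and 922 lower. DESeq2 size factors gave 1739, library totals 1603, DESeq2's own test 1996, and no filter 1653. All 30 libraries by their titles gave 1356, and 1930 with 2 W89A libraries exchanged as in the authors' tables; leaving both out gave 1908. At least 2-fold, 465 were called. The 6 W89A libraries alone gave 1139 calls, 533 higher and 606 lower, and a replicate block added to that fit after seeing the data gave 52, 16 higher and 36 lower; the cause was not tested. Leaving out 1 library at a time gave 755 to 2169 calls, 344 to 1005 higher and 411 to 1164 lower. Without both third-cycle W89A libraries there were 2141. Same-numbered W89A libraries did not deviate together (correlations -0.019, -0.00384 and -0.153), so the numbers were not taken as pairs; a replicate block in the 12-library fit gave 1448 calls, 640 higher and 808 lower. The strain difference kept between 1517 and 2300 calls under every alternative run. Library totals moved the median of all genes in WT to 0.24, against -0.01 under TMM, and that of the strain difference to -0.15. Of the 30 genes with the largest changes, 26 kept their call without any single W89A library, and no called value of a named gene changed sign under the alternatives run. CRC1, CKA1, FUS3, RME1 and AXL1, which were not called, did so under some alternatives. Of 1900 recounts of gene lists, 450 moved by over 1.5 times. List medians near 0 that changed sign with the scaling were those of DNA replication, NuA4, haploid-specific and histone genes. Totals of all 30 libraries lay between 16540627 and 20260295 counts, and 987 features with few counts were not tested.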

Other observations

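Sterol, iron and nuclear pore genes moved in the same comparison. Of 26 ergosterol synthesis genes 7 were higher and 2 lower in W89A at time point 3, with a median of 0.24, and 12 were higher and 1 lower without the third-cycle library of time point 3, but 3 higher and none lower without its second-cycle library. The shares were 26.9% higher and 7.69% lower, against 12.8% and 15% of all genes tested. HMG1, an HMG-CoA reductase, had 674, 641 and 424 CPM at time point 3, against 318, 315 and 298 CPM at time point 2, and changed by 0.90 ± 0.18 (edgeR adjusted p = 0.00423). Its groups did not overlap. ERG5, a late desaturase, changed by 0.74 ± 0.14 (edgeR adjusted p = 0.00399). ERG1, squalene epoxidase, was lower, with a change of -0.56 ± 0.18 (edgeR adjusted p = 0.0338), with a call that was lost without any of 5 of the 6 W89A libraries (all but the third cycle of time point 2). Of 25 iron uptake genes tested 8 were higher (32%, against 12.8% of all genes tested) and 1 lower (4%, against 15%). Without the second-cycle library of time point 3, 2 were higher. FIT1, a cell wall protein that holds siderophores, changed by 0.98 ± 0.19 (edgeR adjusted p = 0.00395), HMX1, heme oxygenase, by 0.94 ± 0.18 (edgeR adjusted p = 0.00391) and ARN1, a siderophore transporter, by -0.83 ± 0.17 (edgeR adjusted p = 0.00532). Of 31 nuclear pore genes 8 were lower (25.8%, against 15% of all genes tested) and none higher. Without the second-cycle library of time point 3, 1 was lower. POM34, a membrane protein of the pore, had 41.8, 46.5 and 62.5 CPM at time point 3, against 91.02, 98.2 and 91.6 CPM at time point 2, with no overlap and a change of -0.90 ± 0.14 (edgeR adjusted p = 0.00209).

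Of 4 alpha-specific genes 3 were higher, against 12.8% of all genes tested: MF(ALPHA)2, of the alpha factor, changed by 1.53 ± 0.34 (edgeR adjusted p = 0.00801), SAG1, an agglutinin, by 1.53 ± 0.39 (edgeR adjusted p = 0.0139) and STE3, the a-factor receptor, by 1.03 ± 0.17 (edgeR adjusted p = 0.0025). STE3 had 598, 596 and 499 CPM at time point 3, against 279.5, 272 and 281 CPM at time point 2. It overlaps YKL177W on the opposite strand. Of 6 a-specific genes AGA2, STE2 and MFA2 were higher, with changes of 1.58 ± 0.35 (edgeR adjusted p = 0.00655), 0.76 ± 0.16 (edgeR adjusted p = 0.00527) and 1.35 ± 0.42 (edgeR adjusted p = 0.0291). AGA2 had 6.43, 7.92 and 4.93 CPM at time point 3, against 2.17, 1.85 and 2.404 CPM at time point 2. Of 9 haploid-specific genes 1 was higher (11.1%), STE18, with a change of 0.65 ± 0.18 (edgeR adjusted p = 0.0172), and the list's median was -0.03. The calls of MFA2 and STE18 were lost without the first-cycle or second-cycle library of time point 3 or the third-cycle library of time point 2, that of MFA2 also without the second-cycle and that of STE18 without the first-cycle library of time point 2. The call of SAG1 was lost without the first-cycle library of time point 3 or the second-cycle library of time point 2.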
